A study of Mus musculus with 11 samples.

Results

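Kruppel-like factors are transcription factors, and 10 genes of this family were followed in mouse alveolar macrophages, the phagocytes that live on the inner surface of the lung. The 10 are Klf3, Klf4, Klf6, Klf7, Klf8, Klf9, Klf10, Klf11, Klf13 and Klf16, out of 17 genes named Klf and 19505 gene symbols on the array. Each was represented by 1 transcript cluster, the unit into which this array groups its probes. They were chosen from their measured levels on these same 11 arrays, so their differences between groups are described here without a test. Fewer macrophages carrying a transcript and less of that transcript per cell cannot be told apart in such bulk RNA.

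The resolution group (n = 4) had its lungs washed on day 30, after 5 injections of CpG 1826 in the first 10 days. In the acute group (n = 3) the same course of CpG 1826 was followed by lavage on day 10. The control group (n = 4) was given PBS, the vehicle, 5 times on the same schedule, with lavage on day 10. Mice of all groups were C57BL/6J females, 6 weeks old when purchased, and the labels call each sample a biological replicate. CpG 1826 is an oligonucleotide that activates the DNA sensor Tlr9, and the study uses its repeated injection as a model of macrophage activation syndrome (MAS), a hyperinflammatory state. Alveolar macrophages were taken from lavage fluid by adherence, and the labels describe no sort for surface markers. There was no PBS group at day 30, so past CpG treatment and day of lavage cannot be told apart in the resolution group.

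Proteins of this family bind GC-rich and CACCC sequences in gene promoters through a block of zinc fingers at the carboxy terminus, and differ in the regions that recruit other proteins. Klf4, Klf6 and Klf7 mostly activate transcription, Klf3 and Klf8 repress it with the corepressor CtBP, and Klf9, Klf10, Klf11, Klf13 and Klf16 recruit the corepressor Sin3. In macrophages the family is known for setting the balance between inflammatory and alternative activation, with Klf4 and Klf6 the members studied most in this respect.

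Values are deposited intensities given as log2(intensity + 1), called log2 level below, and a difference of 1 on this scale is a doubling. An array's background was the 90th percentile of its 23 background probe sets, which lay between 6.12 and 6.24. Median intensities of the arrays lay between 51.4 and 57.0, and between 8731 and 8952 genes were above background. All 15 alveolar macrophage markers found on the array, among them Siglecf and Marco, were above background on all 11 arrays. All 4 B cell markers measured, 9 of 12 T and NK cell markers (Cd3e and Nkg7 among them), 6 of 8 endothelial markers and 3 of 7 monocyte markers (Ly6c2, Cx3cr1 and F13a1) were below background on every array. Of the other monocyte markers, Fn1 was above background on all 11 arrays, and Ccr2, Vcan and Plac8 on some. Further markers of other cells were also above background on all 11 arrays. These were Cd2 (T and NK cells), Vwf (endothelium), Slc4a1 (red cells), and Clec9a and Ccr7 (dendritic cells). So were 3 of 9 neutrophil and 7 of 14 lung epithelial markers. Cd2 stood between 14.20 and 14.83.

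Among the activators, Klf4 was higher and Klf6 lower in every resolution array than in any other array. Klf4, which takes part in monocyte differentiation and in alternative activation of macrophages, had log2 levels of 10.74, 10.96, 11.14 and 10.99 in resolution arrays. The acute arrays stood at 8.95, 9.39 and 9.24, and the control arrays at 9.21, 8.75, 8.98 and 8.77. Every resolution array lay above every other array, with a gap of 1.36 between the lowest resolution array and the highest of the other 7. The mean of Klf4 was 2.03 ± 0.14 (SE) higher in resolution than in control, which is 4.09-fold, and 1.77 ± 0.16 (SE) higher than in acute.

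Klf6, an injury-induced factor that promotes inflammatory gene expression in mouse macrophages, ran the other way. Its log2 levels were 12.60, 12.84, 13.30 and 12.65 in resolution arrays, 13.98, 13.72 and 13.79 in acute arrays and 14.16, 14.16, 14.27 and 13.83 in control arrays. All 4 resolution arrays lay below the other 7, and the closest arrays were 0.43 apart. The mean of Klf6 was 2.39-fold lower in resolution than in control, a difference of -1.26 ± 0.16 (SE), and 1.98-fold lower than in acute. It was the member with the largest negative difference.

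Klf7, a widely expressed activator known from neuronal development, showed no such separation. It had 8.70, 8.55, 8.70 and 9.17 in resolution arrays, 8.97, 9.01 and 9.22 in acute arrays and 8.81, 9.12, 9.27 and 9.08 in control arrays. The groups overlapped in all 3 comparisons, and the resolution mean was -0.29 ± 0.15 (SE) from the control mean.

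**Figure D1:**
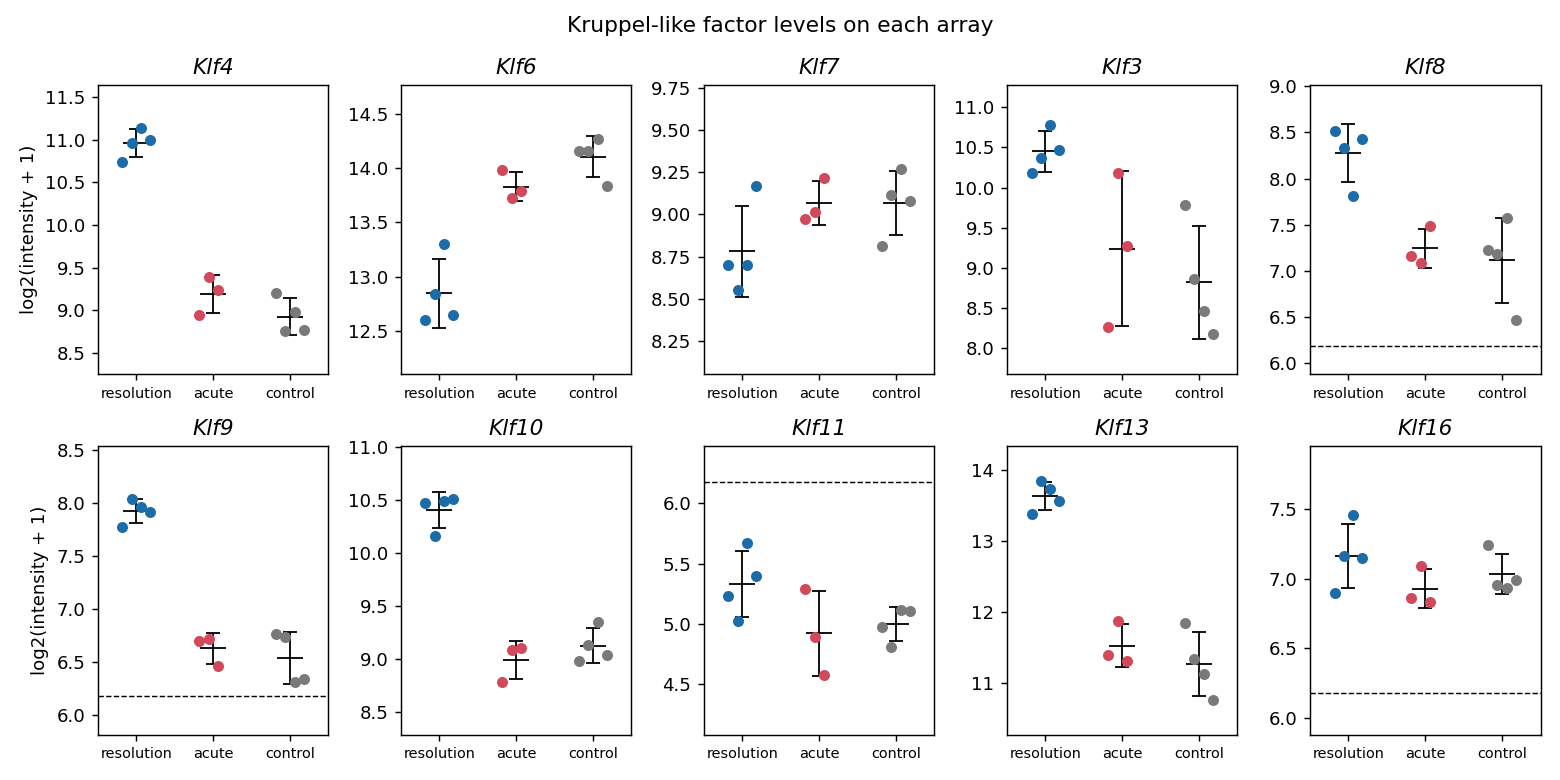
Log2 level, log2(intensity + 1), of the 10 Kruppel-like factors on each array, with resolution (4 arrays), acute (3 arrays) and control (4 arrays) from left to right. Points are arrays, bars are means ± SD, and the dashed line, where it is in range, is the mean array background. The 4 resolution points of Klf4, Klf8, Klf9, Klf10 and Klf13 lie above all 7 others, and those of Klf6 lie below.

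The CtBP-binding repressors Klf3 and Klf8 were both higher on average in the resolution arrays, with less room between the groups. Klf3, which is known for its roles in erythroid cells, adipocytes and B cells, had 10.18, 10.37, 10.78 and 10.47 in resolution arrays. Its levels were 8.26, 10.18 and 9.27 in acute arrays and 9.79, 8.85, 8.47 and 8.17 in control arrays. Acute replicate 2 stood 0.0053 above the lowest resolution array, so resolution and acute overlapped there, while resolution and control did not. Klf3 had the widest spread of the 10 within a group, with an SD of 0.96 in acute arrays and 0.70 in control arrays. Its mean was 1.63 ± 0.39 (SE) higher in resolution than in control and 1.21 ± 0.42 (SE) higher than in acute. With control replicates 3 and 4 left out, its resolution minus control difference was 1.13 and no longer passed the threshold used for all genes.

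Klf8, a repressor linked to cell motility in human tumour cells, had 8.52, 8.33, 7.81 and 8.43 in resolution arrays, 7.16, 7.09 and 7.49 in acute arrays and 7.22, 7.18, 7.57 and 6.47 in control arrays. Resolution replicate 3, the lowest of its group, was 0.24 above the highest of the other 7 arrays. The mean was 2.24-fold higher in resolution than in control, a difference of 1.16 ± 0.22 (SE), and 2.04-fold higher than in acute.

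Among the Sin3-binding repressors, Klf13, Klf9 and Klf10 were higher in every resolution array than in any other array, while Klf16 overlapped between the groups and Klf11 was below background. Klf13, which drives late expression of the chemokine gene Ccl5 in T cells, had 13.39, 13.85, 13.73 and 13.57 in resolution arrays, 11.39, 11.87 and 11.30 in acute arrays and 11.85, 11.33, 11.13 and 10.76 in control arrays. The lowest resolution array lay 1.52 above the highest of the other 7, the widest gap among the members. Its mean was 5.17-fold higher in resolution than in control, a difference of 2.37 ± 0.21 (SE), and 4.33-fold higher than in acute.

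Klf9, induced by glucocorticoids and thyroid hormone in several tissues, had 7.78, 8.04, 7.96 and 7.92 in resolution arrays. It had 6.70, 6.72 and 6.47 in acute arrays and 6.76, 6.74, 6.32 and 6.34 in control arrays, all above their own background but close to it. The resolution arrays again stood apart, by 1.01, and the mean was 1.38 ± 0.13 (SE) higher than in control and 1.29 ± 0.15 (SE) higher than in acute. With control replicates 3 and 4 left out, the resolution minus control difference of Klf9 was 1.17.

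Klf10, an early response gene of transforming growth factor beta, had 10.47, 10.16, 10.49 and 10.52 in resolution arrays, 8.78, 9.08 and 9.10 in acute arrays and 8.98, 9.13, 9.35 and 9.04 in control arrays. Its resolution arrays were apart from the other 7 by 0.81. The mean was 2.44-fold higher in resolution than in control, a difference of 1.29 ± 0.13 (SE), and 2.68-fold higher than in acute, a difference of 1.42 ± 0.14 (SE).

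Klf16, first described as a repressor of dopamine receptor genes, had 6.89, 7.16, 7.45 and 7.15 in resolution arrays, 6.86, 7.09 and 6.83 in acute arrays and 7.24, 6.96, 6.93 and 6.99 in control arrays. The groups overlapped throughout, with a resolution minus control difference of 0.13 ± 0.14 (SE). Klf11, a relative of Klf10 known for its part in insulin gene expression, was below background on all 11 arrays, with levels between 5.03 and 5.67 in resolution, between 4.58 and 5.29 in acute and between 4.81 and 5.11 in control arrays, so no fold is given.

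**Figure D2:**
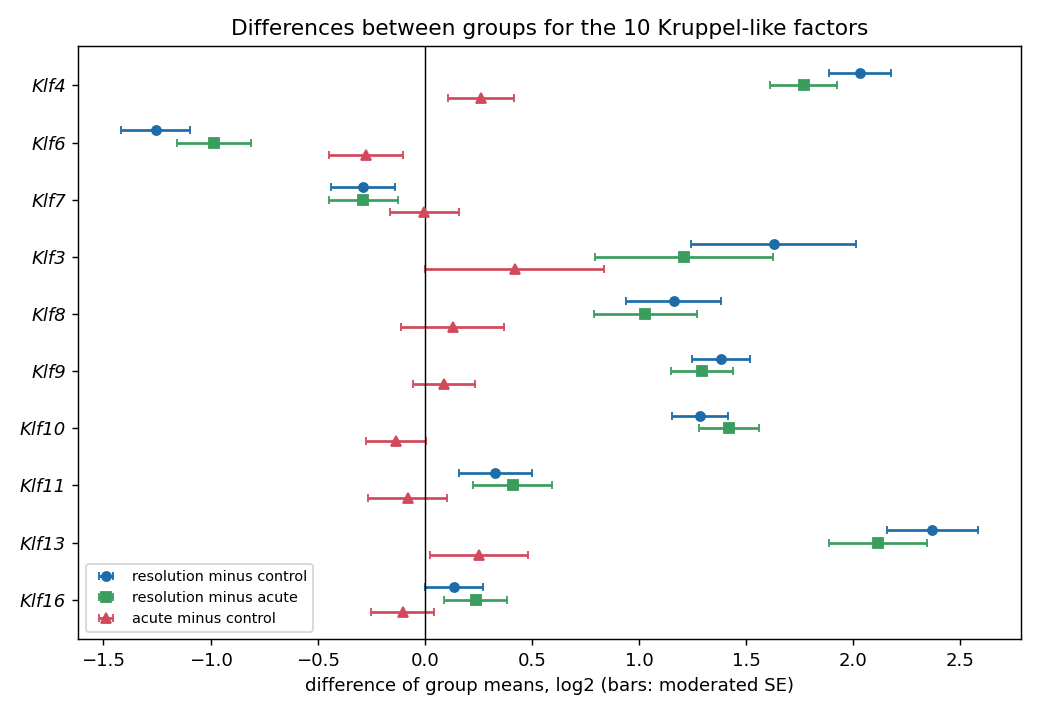
Differences of group means on the log2 scale (x axis) for the 10 Kruppel-like factors (rows), with moderated standard errors from limma as bars. Resolution minus control and resolution minus acute share the resolution arrays, and resolution minus control and acute minus control share the control arrays. Klf13 and Klf4 lie farthest to the right and Klf6 farthest to the left, while the acute minus control differences lie between -0.27 and 0.42.

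Resolution against control asks how the macrophages differed on day 30, well after the course, from those of mice given PBS. Of the 10 members, 6 were past the limma threshold (Benjamini-Hochberg adjusted p under 0.05 over 12146 genes) and higher, beside 9.6% of all genes tested, and 1 was past it and lower, beside 9%. In either direction these were 7 of 10 members, beside 18.6% of all genes. Since the members were chosen for their levels on these arrays, nothing is read from these shares. The same holds for the other comparisons and for which single members passed, which are given only as a description. The arrays of the 2 groups did not overlap for 7 of 10 members, beside 22.7% of all genes, with 6 higher (11.4% of all genes) and 1 lower (11.2%). The median difference was 1.22 over the members and 0.00346 over all genes.

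Resolution against acute compares day 30 with day 10 after the same injections. Here 5 members were past the threshold and higher, beside 7.76% of all genes tested, and 1, Klf6, was past it and lower, beside 6.69%. Klf3, at 2.31-fold higher, did not pass. These 6 of 10 stood beside 14.4% of all genes in either direction, and arrays did not overlap for 6 members, beside 26.3% of all genes, with 5 higher (13.5%) and 1 lower (12.9%). The count depended on single arrays, since Klf8 no longer passed without acute replicate 1 or without acute replicate 2, and Klf3 passed without acute replicate 2 or without control replicate 1. The median difference was 1.12 over the members and -0.00131 over all genes.

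Acute against control asks what the members' levels were at the end of the CpG course. None of the 10 members passed the threshold, beside 0.239% of all genes tested (0.189% higher and 0.0494% lower). The arrays overlapped for all 10, while 10.1% of all genes did not overlap (4.72% higher and 5.39% lower). limma gave 0 of 10 members and 1101 of 12146 genes at an unadjusted p under 0.05, and with so few members nothing is read from that 0. The differences ranged from -0.27 ± 0.17 (SE) for Klf6 to 0.42 ± 0.42 (SE) for Klf3, and 5 of 10 were positive. That of Klf4 was 0.26 ± 0.15 (SE) and that of Klf13 was 0.25 ± 0.23 (SE). For Klf7, Klf8 and Klf9 all 3 acute arrays lay inside the range of the control arrays. These intervals leave room for differences in either direction for most members, and a p that misses the threshold does not show equal levels.

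The remaining 7 genes of the family on the array, Klf1, Klf2, Klf5, Klf12, Klf14, Klf15 and Klf17, were below background on all 11 arrays and were not among the genes tested. Klf2, a factor that restrains inflammatory activation of myeloid cells, averaged 4.60 ± 0.20 in resolution (SD, n = 4), 4.77 ± 0.24 in acute (SD, n = 3) and 4.72 ± 0.18 in control arrays (SD, n = 4). A probe below background gives only an upper bound, so these genes may still be transcribed at levels this array does not measure.

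**Figure D3:**
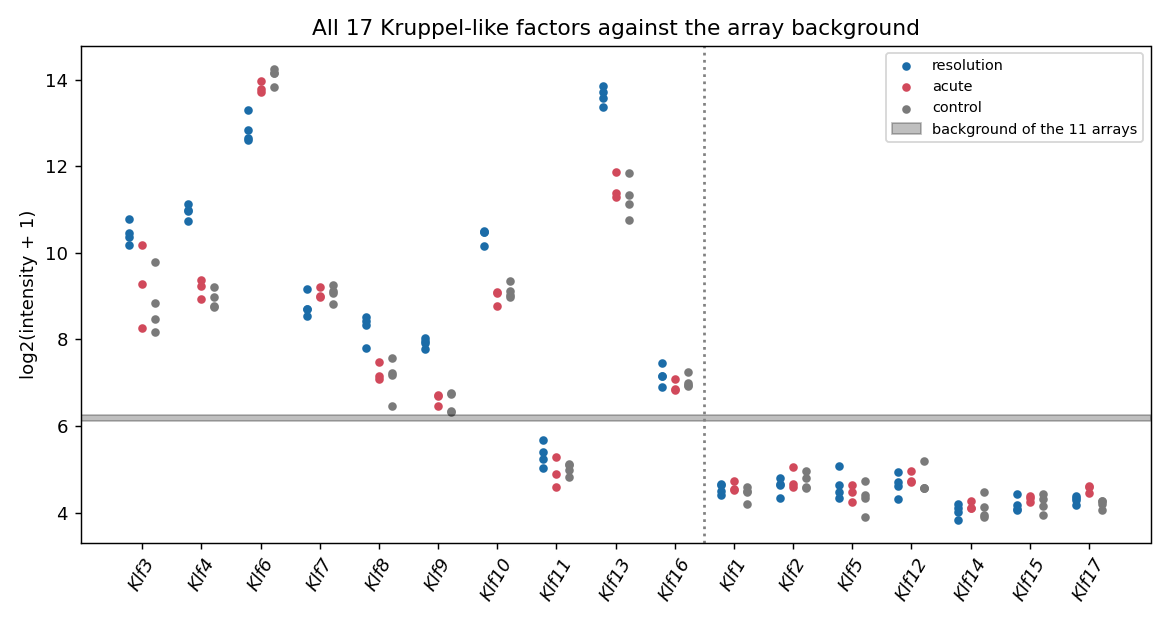
Log2 level of all 17 Klf genes on the array (x axis, the 10 members left of the dotted line) on each of the 11 arrays, with resolution, acute and control points from left to right for each gene. The grey band is the range of the array backgrounds, 6.12 to 6.24, and Klf11 and the 7 genes right of the line lie below it. Probes differ between genes, so heights are not comparable from gene to gene.

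The promoters of 4 members are shown to set 3 of the members higher in resolution, Klf4, Klf13 and Klf9, beside Klf6, the one that was lower. Each is the 250 bases before the start of transcription in the RefSeq annotation of GRCm38.p6, printed 5′ to 3′ on the strand of the gene. Capitals mark the GC box GGGCGG and the CACCC element, both in either orientation (CCGCCC and GGGTG on the other strand), which are binding sequences of this family.
Klf4 promoter, chr4:55532476-55532725, minus strand: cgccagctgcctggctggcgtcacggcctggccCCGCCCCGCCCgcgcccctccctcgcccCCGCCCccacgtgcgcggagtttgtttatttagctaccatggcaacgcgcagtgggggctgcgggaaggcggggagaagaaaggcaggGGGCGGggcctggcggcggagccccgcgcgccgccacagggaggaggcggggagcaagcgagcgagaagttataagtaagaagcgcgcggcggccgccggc
Klf13 promoter, chr7:63938916-63939165, minus strand: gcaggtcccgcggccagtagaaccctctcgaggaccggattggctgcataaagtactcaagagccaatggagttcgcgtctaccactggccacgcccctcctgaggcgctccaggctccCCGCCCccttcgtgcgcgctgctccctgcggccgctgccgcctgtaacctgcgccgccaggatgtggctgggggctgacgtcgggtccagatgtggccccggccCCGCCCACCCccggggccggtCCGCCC
Klf9 promoter, chr19:23140976-23141225, plus strand: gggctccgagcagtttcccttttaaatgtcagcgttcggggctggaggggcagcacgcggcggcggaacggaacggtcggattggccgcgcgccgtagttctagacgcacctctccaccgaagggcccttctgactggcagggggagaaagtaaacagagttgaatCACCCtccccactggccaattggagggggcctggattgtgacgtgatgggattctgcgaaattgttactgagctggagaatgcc
Klf6 promoter, chr13:5861239-5861488, plus strand: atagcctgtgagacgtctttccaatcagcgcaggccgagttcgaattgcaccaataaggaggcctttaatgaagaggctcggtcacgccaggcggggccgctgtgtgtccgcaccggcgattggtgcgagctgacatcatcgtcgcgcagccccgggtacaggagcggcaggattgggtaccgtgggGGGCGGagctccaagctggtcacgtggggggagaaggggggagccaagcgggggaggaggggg

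The GC box was found in 7 of the 8 members with a promoter entry and in 32.7% of all 32851 promoters, with matches that share bases counted separately. The CACCC element was found in 5 of these 8 members and in 52.0% of all promoters. In Klf13 a CACCC match overlaps a GC box. Klf9, which was higher in resolution like Klf4 and Klf13, was the member without a GC box in this window, and Klf6, which was lower, had 1. The E-box CACGTG was found in Klf4, Klf6 and Klf11, beside 6.02% of all promoters, and the AP-1 element TGANTCA in Klf9, beside 6.75%, where it overlaps the CACCC match. The cAMP response element TGACGTCA and TATAAA were found in 0 members, beside 1.55% and 12.4% of all promoters. The GC content of the printed windows was 74.0% for Klf4, 71.6% for Klf13, 59.6% for Klf9 and 64.8% for Klf6, and the median over all promoters was 52.4%. The search covered both strands, and these matches describe letters in a window, not occupied sites.

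A few genes followed the 2 members at the extremes most closely, measured as the SD over the 11 arrays of the gene's log2 level minus the member's. For Klf13, whose own SD over the arrays was 1.19, the closest were Midn, a nuclear factor that brings proteins to the proteasome, at 0.204, the orphan receptor Gpr160 at 0.225 and the UDP receptor P2ry6 at 0.283. Midn averaged 12.62 in resolution, 10.71 in acute and 10.60 in control arrays. For Klf6, with an SD of 0.623, they were Mdm2, the ubiquitin ligase of p53, at 0.145, the RING finger protein gene Lonrf3 at 0.173 and the mechanically gated channel Piezo1 at 0.175. Mdm2 averaged 10.85 in resolution, 11.76 in acute and 12.04 in control arrays. These genes were picked for their likeness, so the values are a description.

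The Sp factors, which share GC-box binding with the family, were tested gene by gene in the same limma fit, with adjusted p over all 12146 genes. Of 4 tested Sp genes, 1 rose and 1 fell in resolution against control, beside 18.6% of all genes in either direction. Sp4, an activator known from neurons, rose by 1.34 ± 0.16 (SE), with limma adjusted p = 8.73e-05, and stood at 8.73 ± 0.29 in resolution (SD, n = 4), 7.48 ± 0.22 in acute (SD, n = 3) and 7.40 ± 0.15 in control arrays (SD, n = 4). Sp3, which can activate or repress, fell by 0.50 ± 0.15 (SE) with limma adjusted p = 0.0336. That call of Sp3 ended, with adjusted p between 0.0546 and 0.0872, without any 1 of the resolution arrays or without control replicate 1 or 2. It also ended with only the arrays of the 2 groups in the fit (0.0561).

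Among 14 genes of cofactors, 1 rose and 3 fell in resolution against control, beside 18.6% of all genes. The median difference was -0.14. Sap30, a subunit of the Sin3 complex, fell by 0.71 ± 0.15 (SE), limma adjusted p = 0.0064, and the acetyltransferase gene Crebbp fell by 0.55 ± 0.13 (SE), limma adjusted p = 0.00951. Hdac2, a histone deacetylase, rose by 0.52 (limma adjusted p = 0.0252), and Sin3b, a Sin3 scaffold, fell by 0.46 (limma adjusted p = 0.0274). The Hdac2 call ended without resolution replicate 1 or 3 or control replicate 2, 3 or 4 (adjusted p 0.06 to 0.0711). It also ended with arrays scaled to a common median (0.0521) and with control replicates 3 and 4 both left out (0.203). The Sin3b call ended without resolution replicate 1 or control replicate 1 or 2 (adjusted p 0.0752 to 0.0805) and with replicate number as a block (0.0626). Ctbp1 and Ctbp2, the corepressors of Klf3 and Klf8, differed by 0.08 and 0.70 and did not pass. Against acute, Sap30 fell by 0.70 and Hdac2 rose by 0.59, with limma adjusted p = 0.014 and 0.0233. Those calls ended without acute replicate 1 or 3 for Sap30 (0.0563 and 0.0517) and without acute replicate 1 or 2 or resolution replicate 1 or 3 for Hdac2 (0.0556 to 0.093). That of Hdac2 also ended with arrays scaled to a common median (0.0528).

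Of 8 enzymes that mark or spare these proteins for degradation, 1 rose and 1 fell in resolution against control, beside 18.6% of all genes. The median difference was -0.32. With the arrays scaled to a common median 1 rose and 3 fell. Siah1a, a ubiquitin ligase, rose by 0.62 ± 0.13 (SE), limma adjusted p = 0.00567, and by 0.69 against acute. Fbxw7, a substrate adaptor of a ubiquitin ligase, fell by 0.75 (limma adjusted p = 0.0234), a call that ended without resolution replicate 2 or control replicate 1 or 2 (adjusted p 0.052 to 0.0661). Of 14 upstream genes, 0 rose and 2 fell against control, beside 18.6% of all genes, with a median of -0.02. Mef2a, a factor that acts upstream of Klf genes in endothelium, fell by 0.88 ± 0.14 (SE) against control (limma adjusted p = 0.000725) and by 0.76 ± 0.15 (SE) against acute (limma adjusted p = 0.00451). Nr3c1, the glucocorticoid receptor, fell by 0.44 (limma adjusted p = 0.0338), which ended without resolution replicate 2 or 3 or control replicate 1, 2 or 3 (adjusted p 0.0508 to 0.0935) and with the block (0.0575). That call also ended with a trended and robust variance (0.0532) and with control replicates 3 and 4 both left out (0.051). Mef2c was past the threshold and higher against acute (limma adjusted p = 0.0332), with a mean of 6.72 in resolution arrays and 5.69 in acute arrays. All 3 acute arrays were below background, so the size of that difference was not measured. That call ended without resolution replicate 2 or 3 or acute replicate 1 or 2 (adjusted p 0.0581 to 0.135) and with the block (0.0654).

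Of 10 tested genes described in other work as targets of these factors, 2 rose and 4 fell in resolution against control. That stood beside 18.6% of all genes, and the median was -0.16. Bcl6, a transcriptional repressor, fell by 2.80 ± 0.31 (SE), 6.97-fold (limma adjusted p = 5.61e-05), where 3 of the 4 resolution arrays were above background. Its mean was 6.89 ± 0.53 in resolution (SD, n = 4), 9.58 ± 0.60 in acute (SD, n = 3) and 9.70 ± 0.43 in control arrays (SD, n = 4). Plau, the urokinase gene, fell by 1.52 ± 0.21 (SE), limma adjusted p = 0.000252, and Cd14, a coreceptor for bacterial lipopolysaccharide, fell by 1.01 ± 0.17 (SE), limma adjusted p = 0.00112. Pparg, which is needed for alveolar macrophage identity and lipid handling, rose by 0.75 ± 0.12 (SE), limma adjusted p = 0.000809. The other gene that rose was Txnrd2, a mitochondrial thioredoxin reductase, by 0.48 (limma adjusted p = 0.035). Its call ended without resolution replicate 2 or 3 or control replicate 1, 2 or 4 (adjusted p 0.0698 to 0.102), with the block (0.0652) and with median or quantile scaling (0.0687 and 0.0688). It also ended with control replicates 3 and 4 both left out (0.104). Against acute, 1 target rose and 3 fell, beside 14.4% of all genes. Among those that fell were Bcl6 by 2.68 and Cd14 by 1.46. Ccl5, Nos2, Smad7, Eng and Igf1r were below background on all 11 arrays. The members that moved are targets of different factors and include both activated and repressed ones in other cells, so no common direction is read from the list.

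**Figure D4:**
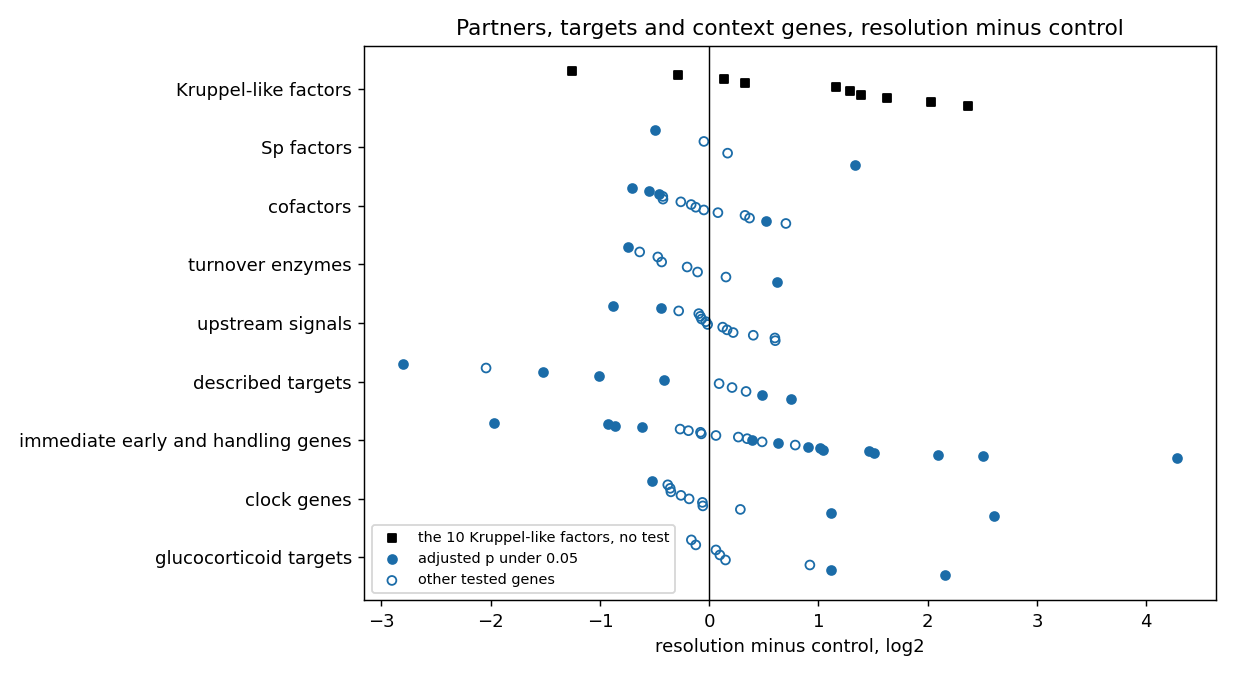
Resolution minus control differences (x axis, log2) of the tested genes of each list (rows). Black squares are the 10 Kruppel-like factors, drawn without a test, filled circles are genes with a limma adjusted p under 0.05 and open circles are the other tested genes. The Kruppel-like factors reach from -1.26 to 2.37, and the immediate early gene Fosb lies farthest right at 4.28.

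Genes that respond within minutes or hours to handling, to the time of day or to stress hormone were also examined. In resolution against control 14 of 23 immediate early genes, 3 of 11 clock genes and 2 of 8 glucocorticoid targets passed the threshold, beside 18.6% of all genes. Of 23 tested immediate early genes, 10 rose and 4 fell against control, with a median of 0.39. Against acute 9 rose and 3 fell, beside 14.4% of all genes. The calls of Myc, Egr2, Zfp36 and Atf3 against control ended in 8, 7, 5 and 1 of the 11 fits without 1 array. Those of Jund, Zfp36, Jun, Ier2 and Gadd45b against acute ended in 8, 5, 2, 1 and 1 of these fits. Fosb, an AP-1 subunit, rose by 4.28 ± 0.31 (SE), limma adjusted p = 3.49e-06, Nr4a2 by 2.51 ± 0.27 (SE) and the related nuclear receptor gene Nr4a1 by 2.09 ± 0.25 (SE). The AP-1 subunit gene Fosl1 fell by 1.97 ± 0.25 (SE), where 3 of the 4 resolution arrays were above background. The summed log2 level of this list was 17.92 to 18.29 in resolution, 17.63 to 17.96 in acute and 17.60 to 17.91 in control arrays. Dusp1, which passed in no comparison, had the highest mean of the list, 16.94, 16.90 and 16.88 in these groups. The sum therefore says little about genes such as Fosb. The part of this list in the differences of the Klf genes was not tested.

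Of 11 tested clock genes, 2 rose and 1 fell against control. Per2, a clock repressor, rose by 2.60 ± 0.20 (SE), limma adjusted p = 3.7e-06, where 2 of the 4 control arrays were above background, and Per1 rose by 1.12 ± 0.18 (SE), limma adjusted p = 0.000811. Cry1, also a clock repressor, fell by 0.52 ± 0.13 (SE), limma adjusted p = 0.0117, a call that ended with control replicates 3 and 4 both left out (0.118). Against acute, 2 clock genes rose, Per2 and Per1, and 3 fell, Cry1, Nr1d2 and Tef, beside 14.4% of all genes. Tef was below background on all 11 arrays. Of these 5 calls, that of Per2 held whichever array was left out. The other 4 ended without acute replicate 3 (adjusted p 0.0527 to 0.118). Without acute replicate 1 that of Per1 ended (0.0604), and without acute replicate 2 those of Nr1d2 (0.153) and Tef (0.0556). Without resolution replicate 1 or 3 those of Cry1 and Nr1d2 ended (0.0527 to 0.0953), without resolution replicate 4 that of Cry1 (0.0637) and without control replicate 1 that of Nr1d2 (0.0511). That of Nr1d2 also ended with control replicates 3 and 4 both left out (0.0546) and with only the arrays of the 2 groups in the fit (0.0746). Of 8 tested glucocorticoid targets, 2 rose against control, Per1 and Tsc22d3. Tsc22d3, which encodes the leucine zipper protein GILZ, rose by 2.16 ± 0.19 (SE), limma adjusted p = 1.11e-05, and by 2.40 ± 0.20 (SE) against acute. The labels do not state the hour of lavage, and the part of these sets in the differences of Klf9 and the other members was not tested.

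In acute against control, 0 genes of these 8 lists passed the limma threshold, beside 0.239% of all genes. The smallest adjusted p was 0.295, for the stress gene Gadd45b at 0.40 above control. Markers of other cells also differed between groups.

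The summed log2 level of 14 lung epithelial markers was 13.66 to 13.87 in resolution, 14.66 to 15.46 in acute and 13.57 to 14.42 in control arrays, with Sftpb and Krt18 below background throughout. In resolution and control arrays Cdh1 had the highest mean of this list, 13.42 and 13.05. Of 12 tested epithelial markers 0 rose and 4 fell in resolution against control, beside 18.6% of all genes. Those that fell were the airway genes Scgb1a1 (log2 difference -1.44), Scgb3a2 (-1.88), Bpifa1 (-1.84) and Cyp2f2 (-1.17), with limma adjusted p 0.00357 to 0.0106. The calls of Scgb1a1 and Scgb3a2 ended with control replicates 3 and 4 both left out (0.0898 and 0.0842). Against acute 0 rose and 8 fell, beside 14.4% of all genes. Of these the calls of Sftpa1, Krt8 and Muc1 ended without acute replicate 1 (adjusted p 0.0568 to 0.0711). That of Krt8 also ended without acute replicate 2 or resolution replicate 1 or 3 (0.0526 to 0.096). In acute against control 4 rose, beside 0.239% of all genes, namely Scgb1a1, Scgb3a1, Bpifa1 and Cyp2f2, by 1.48 to 2.64 (limma adjusted p 0.0269 to 0.0279). All 4 of these calls ended without acute replicate 1, 2 or 3 or control replicate 1 (adjusted p 0.0621 to 0.122), and some of them also without control replicate 2 or 3 or without resolution replicate 1, 2 or 3 (0.0507 to 0.0663). With only the arrays of the 2 groups in the fit all 4 ended (0.128 to 0.144).

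The summed level of 7 monocyte markers was 15.34 to 15.64 in resolution, 14.93 to 15.00 in acute and 14.98 to 15.29 in control arrays. Fn1 made up most of that sum, at 15.33 to 15.63, 14.91 to 14.99 and 14.98 to 15.28 in these groups. For 9 neutrophil markers the sum was 10.82 to 11.39 in resolution, 11.07 to 11.11 in acute and 10.72 to 12.68 in control arrays. Of 6 tested, 1 rose in resolution against control, Csf3r (0.68), and 2 fell, Cxcr2 (-1.08) and Ltf (-1.06), beside 18.6% of all genes. The same genes were called in the same directions against acute. Ltf was below background in all resolution arrays and above it in 1 of the 4 control arrays, so the size of its fall was not measured. Its call against control ended with control replicates 3 and 4 both left out (0.112). The monocyte gene Ccr2 was called higher in resolution than in control (limma adjusted p = 0.0229), where all control arrays were below background. That call ended without resolution replicate 2 or 4 or control replicate 3 or 4 (adjusted p 0.0598 to 0.0663). With control replicates 3 and 4 both left out it also ended (0.217). In that comparison 3 of 4 tested monocyte markers had a positive difference, and Vcan had -0.44. Il2rb and Cd3d, receptor chains of lymphocytes, were above background in the 3 acute arrays and below it in all resolution and control arrays. They were the 2 of 5 tested T and NK cell markers with a positive difference in acute against control. Cd2, Cd3e and Klrb1c differed by -0.08, -0.03 and -0.61, with Cd3e and Klrb1c below background throughout. Il2rb was called higher in acute than in control (limma adjusted p = 0.0197), a call that ended without acute replicate 2 or 3 or control replicate 1 (0.0633 to 0.104). It also ended with only the arrays of the 2 groups in the fit (0.134). Il2rb and Cd3d were called lower in resolution than in acute (limma adjusted p 0.000199 and 0.000114), where 2 of the 5 tested markers had a positive difference. The 3 red cell markers on the array summed to 7.29 to 8.35 in resolution, 8.08 to 15.18 in acute and 7.77 to 8.32 in control arrays. Alas2 made up most of the highest acute sum, and its level ran from 6.99 to 15.15 over the acute arrays (mean 10.47 ± 4.21, SD, n = 3). The part of all these markers in the members' differences was not tested.

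The summed level of the alveolar macrophage markers was 19.08 to 19.13 in resolution, 19.07 to 19.17 in acute and 19.14 to 19.28 in control arrays. Single markers differed in both directions in resolution against control, where 5 of 15 rose and 3 fell, beside 18.6% of all genes. Of the 5 that rose, the call of Mertk ended in 5 of the 11 fits without 1 array (adjusted p 0.0614 to 0.0779). It also ended with the block (0.0605) and with only the arrays of the 2 groups in the fit (0.0518). With control replicates 3 and 4 both left out the calls of Mertk (0.24), Fabp1 (0.0637) and Krt79 (0.0552) ended. Krt19, a keratin, rose by 1.78, while Bhlhe41, a transcriptional repressor, fell by 1.43, and the fatty acid binding protein genes Fabp4 and Fabp5 fell by 1.20 and 0.80 (limma adjusted p 9.24e-06 to 0.00138). In acute against control 0 of the 15 passed, beside 0.239% of all genes.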

How the data were processed

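RNA of alveolar macrophages was hybridised to 11 Affymetrix arrays after biotin labelling with a 3' IVT Pico kit, per the labels' protocols. The authors deposited intensity values on a linear scale, made with Affymetrix Expression Console per the submitters' processing notes. The sources used here give neither its version, nor the summary algorithm, nor the genome build of the array annotation. The table held 28846 probe sets, of which 31 were controls, 19572 had 1 gene symbol, 0 had several and 9243 had none. No further scaling was applied to the deposited values before taking log2(value + 1).

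For each symbol the transcript cluster with the highest mean was used. A gene was tested where at least 3 arrays lay above that array's 40th percentile, which left 12146 genes, all 10 members among them. Klf11 passed this filter although it was below background. limma 3.58.1 in R 4.3.3 (lmFit and eBayes) fitted 1 mean per group over all 11 arrays, with 8 residual and 4.48 prior degrees of freedom, two-sided contrasts and Benjamini-Hochberg adjustment over these genes at a threshold of 0.05. The fit was also run on simulated data built from each gene's mean and residual SD on these arrays, an outcome not given here. Each p-value sets a difference of group means against a moderated variance, estimated from the spread between arrays within groups. The number of arrays limits precision. Groups came from the sample titles.

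The members and all gene lists were chosen with earlier results of these data known. All members and other Klf genes are named. Of every other list up to 4 genes are named, taken by the size of a difference past the threshold or, in a list with no call, by the smallest p, and for the 2 extreme members the 3 genes with the smallest SD of the level difference. The genes below background, and those named for a role beside the members (Ctbp1, Ctbp2, Txnrd2, Ccl5, Nos2, Smad7, Eng, Igf1r, Cry1 against acute), and the cell type markers given by name, fall outside this rule and were chosen after their values were seen. The same holds for the immediate early genes named for their level or for calls that ended (Myc, Egr2, Zfp36, Atf3, Dusp1, Jund, Jun, Ier2, Gadd45b against acute). Promoter sequences came from RefSeq, GRCm38.p6, for 8 of the 10 members. Alternatives covered the pseudocount, the filter, the scaling, the variance model, the replicate block and the arrays left out.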

Additional observations from a re-analysis of the deposited data

Results flagged for a closer look

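Among 48 genes examined in their resolution and control groups of 4 arrays each, 96 groups in all, 9 had 1 array far from the other 3 (Dixon's ratio above 0.829). Chance alone flags about 1 in 20 groups. Of the members, Klf10 had a log2 level of 10.158 in resolution replicate 2, below the other resolution arrays at 10.47 to 10.52 and still above all acute and control arrays. Klf12, which is below background throughout, had 5.1904 in control replicate 1, beside 4.56 in each of the other control arrays.

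Among the list genes, Ctbp2 stood at 10.1742 in resolution replicate 2, beside 8.98 to 9.12 in the other resolution arrays. Mef2a stood at 14.3025 in resolution replicate 2, beside 14.84 to 14.90. Nr4a1 stood at 14.5686 in resolution replicate 4, beside 13.78 to 13.91. Sin3b stood at 13.4816 in resolution replicate 1, beside 13.69 to 13.73. In control arrays, Sap30 stood at 12.7039 in replicate 3, beside 13.12 to 13.15, Siah1b at 6.2332 in replicate 3, beside at most 5.82, and Tef at 5.0452 in replicate 4, beside 5.21 to 5.22. Siah1b was below background in all other arrays, and Tef in all 11.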

How the results depend on the processing

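Under 21 alternatives, 11 of them leaving out 1 array each, the differences of the Klf genes kept their direction wherever a called value was concerned, and 2 of 627 values moved by more than 1 SD between replicates. Both were of Klf9 with control replicates 3 and 4 left out, at 1.17 in resolution minus control and -0.12 in acute minus control. The number of members past the threshold, given only as a description, was 7 in resolution against control in all but 1 alternative. It was 6 with control replicates 3 and 4 both left out. Against acute it was 6, and 5 to 7 with single arrays left out. In acute against control it was 0 throughout. Over all genes, resolution against control called 2259 genes, and 1494 with control replicates 3 and 4 both left out. Resolution against acute called 1755, with 1069 to 1837 when single arrays were left out, the lowest without acute replicate 1. Acute against control called 29, with 6 to 29 when single arrays were left out (6 without acute replicate 2, 10 without acute replicate 3, 13 without control replicate 1, 18 without control replicate 2), 16 with only the arrays of these groups in the fit and 56 with a trended and robust variance. Scaling the arrays to a common median moved the share of higher calls in resolution against acute to 40.6%, beside 53.7% without it, and in resolution against control to 42.7%, beside 51.6%. With replicate number as a block 2120, 25 and 1455 genes passed in resolution against control, acute against control and resolution against acute, and 7, 0 and 6 members. Same-numbered arrays of different groups had correlations of their deviations from -0.12 to 0.09 over 10 pairs, and other pairs from -0.14 to 0.20, so the numbers do not pair the samples. Signal over background limits Klf11 and the 7 other Klf genes on the array, for which no change could be measured.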
